A study of Mus musculus with 16 samples.

Results

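OCT4 binding was mapped around 9 mouse genes that mark the formative epiblast and the early neural lineage, namely Otx2, Zic2, Zic5, Foxd3, Grhl2, Lin28a, Lin28b, Pax6 and Nes. A peak, that is a region called as enriched for OCT4-bound DNA, was counted at a gene when its midpoint lay inside the gene body or within 100 kb of any annotated transcript start (GENCODE M21, mm10). This rule took 45 of the 26704 peaks of one merged OCT4 list (0.169%). For Zic2 and Zic5, 8 further peaks were included from a 40 kb interval of chromosome 14 inside the gene Clybl, 185.4 to 225.4 kb upstream of the Zic2 start and so outside the reach of the rule.

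The list came from chromatin immunoprecipitation sequencing (ChIP-seq) with an OCT4 antibody in 2TS22C cells, a mouse embryonic stem (ES) cell line in which a Tet-Off promoter drives Sox2, so that doxycycline shuts Sox2 off. The OCT4 libraries were SOX2 ON (untreated, 26 h, n = 2) and SOX2 OFF (1 μg/ml doxycycline, 26 h, n = 2), out of 16 libraries in 8 groups. The other libraries, against BRG1 and H3K27ac in 2TS22C cells and against H3K27ac in ZHBTc4 cells (Tet-Off Pou5f1, the OCT4 gene), were not analysed here. All cells grew in serum with leukemia inhibitory factor and inhibitors of GSK3 and MEK, a medium that keeps ES cells near the naive state. The study found that some SOX2 protein remained after this treatment. The list holds only coordinates, with no peak height, no depth and no value per library, so SOX2 ON could not be compared with SOX2 OFF here, and peak number, position, width and sequence are the measurements available.

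As background, OCT4 is a POU-domain factor that binds an octamer DNA sequence, alone or beside SOX2 on a composite motif made of a SOX site followed by the octamer. When naive cells move towards the formative epiblast, OCT4 is redirected to new enhancers together with OTX2, ZIC2, GRHL2 and FOXD3, and LIN28 proteins then reduce the let-7 microRNAs. Pax6 and Nes are switched on later, in neural progenitors.

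In the peaks at these genes the composite motif was found in 4 of 45, and in 2 of the 8 interval peaks. The motif was searched as the SOX site CATTGT, 1 spacer base T and the octamer ATGCAAAT, 15 bases in all, with at most 3 mismatches on either strand, anywhere in the peak. These 6 sites are shown because they are the closest matches here to the sequence that OCT4 and SOX2 bind side by side; a match is a description, not proof of binding at those bases. Each is printed in the direction of the motif with 30 bases on either side, and the capitals mark the 15 bases aligned to the motif, mismatches included.
Otx2, chr14:48754213-48754287, minus strand, 3 mismatches: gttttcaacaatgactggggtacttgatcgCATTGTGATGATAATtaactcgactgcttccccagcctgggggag
Foxd3, chr4:99641896-99641970, plus strand, 3 mismatches: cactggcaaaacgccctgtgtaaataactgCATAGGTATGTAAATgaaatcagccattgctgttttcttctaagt
Grhl2 intronic site, chr15:37238841-37238915, plus strand, 3 mismatches: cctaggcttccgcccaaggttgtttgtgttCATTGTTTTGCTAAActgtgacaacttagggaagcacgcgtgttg
Grhl2 downstream site, chr15:37386487-37386561, minus strand, 2 mismatches: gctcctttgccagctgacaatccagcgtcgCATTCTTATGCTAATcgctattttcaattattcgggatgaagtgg
Clybl interval, chr14:122258469-122258543, plus strand, 3 mismatches: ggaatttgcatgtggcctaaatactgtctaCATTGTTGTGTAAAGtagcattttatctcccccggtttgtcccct
Clybl interval, chr14:122277386-122277460, plus strand, 2 mismatches: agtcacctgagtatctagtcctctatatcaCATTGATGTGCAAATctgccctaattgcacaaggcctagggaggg
None of the 6 matched all 15 positions. The SOX site was whole at Otx2, at the Grhl2 intronic site and at the first interval site, and the site at Foxd3 had 2 of its 3 mismatches in the SOX site. The 2 interval sites lay 4 and 40 bp from the midpoint of their peak and the Otx2 site 14 bp, while the Foxd3 site and the Grhl2 sites lay 129, 128 and 155 bp away.

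A whole octamer ATGCAAAT, searched on both strands, was found in 6 of the 45 peaks, and in 1 interval peak. The octamers at the members are shown because they are exact matches to the sequence that OCT4 reads alone, and capitals mark the 8 bases.
Otx2, chr14:48662994-48663023, minus strand: caatgagtcctATGCAAATgttgggttagg
Otx2, chr14:48754097-48754126, minus strand: tcctaataagcATGCAAATgaactcgactt
Zic2 and Zic5, chr14:122416538-122416567, plus strand: ttaaaacaaacATGCAAATtagccaagaac
Zic2 and Zic5, chr14:122468352-122468381, plus strand: tagatgtattcATGCAAATtctgtcctttt
Grhl2, chr15:37401798-37401827, minus strand: acctgagatagATGCAAATtgtaatccttt
Pax6, chr2:105675427-105675456, minus strand: cactccgcaacATGCAAATgcaccgctcgc
None of these 6 octamers carried a SOX site at the composite spacing: the 7 bases before each differed from the SOX site and spacer at 4 to 6 positions. The Pax6 octamer lay 23 bp and the Grhl2 octamer 25 bp from the midpoint of its peak, and the octamer of the peak between Zic5 and Zic2 lay 191 bp away.

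All 9 genes had at least 1 peak under the 100 kb rule, as did 85.7% of the 21938 protein-coding genes, so the presence of a peak is common. Otx2 and Zic5 had 8 peaks each, Zic2 and Grhl2 had 7, Foxd3 and Pax6 had 6, Lin28a had 5, Nes had 3 and Lin28b had 2. The median member had 6 peaks and the median protein-coding gene 3, with a middle range from 1 to 5. Zic2 and Zic5 shared 7 of these peaks, so the per-gene counts sum to 52. Of the members, 7 had more peaks than the median gene, beside 42.3% of all protein-coding genes. Nes equalled the median and Lin28b was below it. At least as many peaks as Otx2 and Zic5 were found at 8.47% of protein-coding genes, and at least as many as Lin28b at 71.6%, so single members lie well inside the range of ordinary genes.

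**Figure D1:**
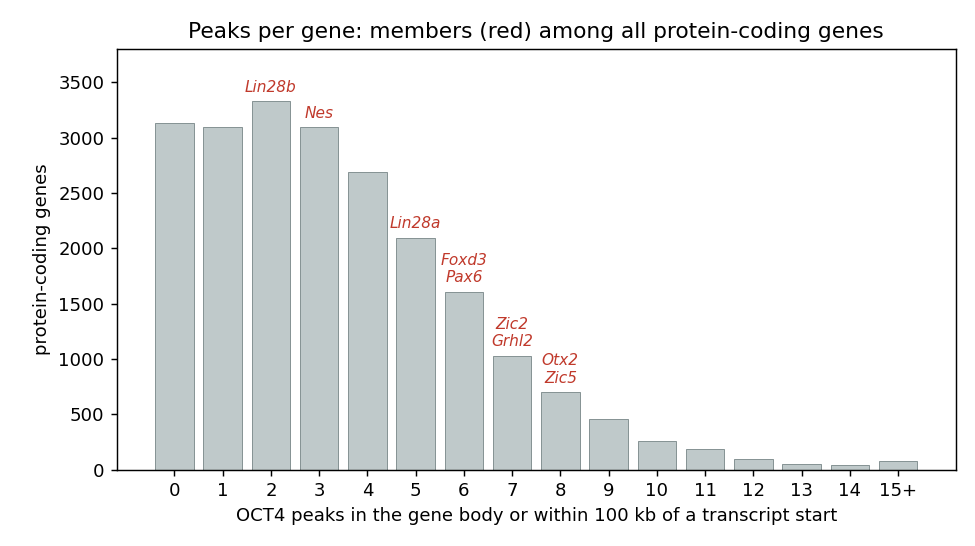
Number of protein-coding genes (vertical axis) with each number of OCT4 peaks in the gene body or within 100 kb of a transcript start (horizontal axis, the last bar pooling the highest counts). The names of the 9 members stand above the bar they fall in: they run from 2 peaks (Lin28b) to 8 (Otx2 and Zic5), and the median gene has 3.

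The window that the rule searches widens with the spread of a gene's annotated starts. Gene length adds to it only where the body runs past the reach of those starts. The window ran from 200.0 kb at Foxd3 to 302.7 kb at Grhl2. Per 100 kb of window, the number of peaks was 3.89 at Zic5, 3.776 at Otx2, 3.454 at Zic2 and 3 at Foxd3. It was lower at Pax6 (2.684), Lin28a (2.387), Grhl2 (2.313) and Nes (1.5), and 0.9251 at Lin28b. The median protein-coding gene had 1.395 and the genome as a whole 0.98. On this scale Grhl2, which has one of the higher counts, fell below Foxd3, Pax6 and Lin28a, and Lin28b alone was below the median gene. All 9 members kept a peak within 20 kb of a start or in the body, beside 54.6% of protein-coding genes.

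**Figure D2:**
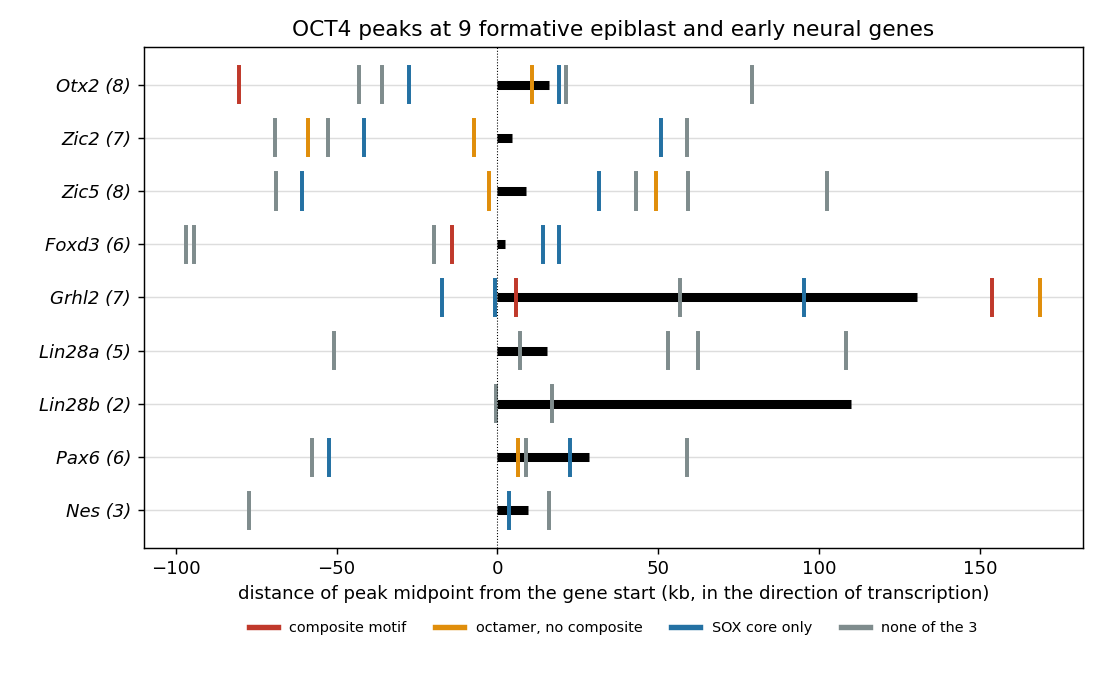
Position of each OCT4 peak (vertical ticks) relative to the gene start (horizontal axis, kb, in the direction of transcription), with 1 row per gene, the number of peaks in brackets and the gene body as a black bar. Colours give the motif found in the peak; composite matches are at Otx2, Foxd3 and Grhl2, and Lin28a and Lin28b have none of the 3 motifs.

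Otx2 encodes a homeodomain factor that directs OCT4 to formative enhancers and later patterns the forebrain. Its 8 peaks spanned 160 kb, and for each of them Otx2 was the protein-coding gene with the nearest start. The nearest was chr14:48662917-48663243 (327 bp), in an Otx2 intron 208 bp from an internal transcript start and 10.7 kb from the outermost one. A peak this near to a start was found at 7% of protein-coding genes. The central 300 bases of this peak are printed because it is the Otx2 peak nearest to an annotated start. It holds the first octamer above, here in capitals in its plus-strand form.
Otx2 peak, chr14:48662931-48663230, plus strand: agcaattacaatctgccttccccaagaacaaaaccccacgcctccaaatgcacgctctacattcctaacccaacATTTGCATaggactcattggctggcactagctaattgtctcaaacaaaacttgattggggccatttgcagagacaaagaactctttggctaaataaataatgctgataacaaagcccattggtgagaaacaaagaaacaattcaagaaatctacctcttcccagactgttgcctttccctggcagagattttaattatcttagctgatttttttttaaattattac
The widest Otx2 peak was the intergenic chr14:48654335-48655242 (908 bp), downstream of the gene end, with a SOX core (CCATTGT or CCTTTGT, either strand). A peak of 207 bp lay 2.19 kb from it, the smallest gap at this gene. On the other side, 4 peaks stood 27.4, 35.8, 42.9 and 80.4 kb upstream, all in introns of Otx2os1, a long non-coding RNA gene beside Otx2. The farthest, chr14:48754006-48754523 (518 bp), was the only one of the 45 with both a composite match and an octamer, and these are separate sites. The last peak (417 bp) lay 79.2 kb past the gene start in an intron of the non-coding Gm49120.

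Zic2 and Zic5 encode zinc-finger factors and lie head to head, so that 1 peak between them, chr14:122467888-122468462 (575 bp), was the nearest to both: 2.5 kb from the Zic5 start and 7.26 kb from the Zic2 start. It holds the octamer shown above and a related 8-mer, ATGCTAAT, of which 30 bases are shown. This 8-mer was the most raised in earlier work on this same list, so its presence is a description and carries no test.
Zic2 and Zic5, ATGCTAAT, chr14:122467967-122467996, plus strand: atcgacttgagATGCTAATtcttaaaagaa
Peaks this near to a start were found at 22.2% (Zic5) and 33.6% (Zic2) of protein-coding genes. Neither gene body held a peak. Another 4 shared peaks lay past the end of Zic5, 41.3 to 69.2 kb upstream of Zic2, with widths of 678, 721, 208 and 496 bp. The widest, chr14:122416104-122416824, held both an octamer and a SOX core, one of only 2 such peaks of the 45. On the Zic2 side were 2 peaks 51 and 58.9 kb past the Zic2 start (236 and 633 bp). The second of these overlapped a coding exon of Pcca, a mitochondrial carboxylase subunit gene, and lay 36 bp from a Pcca start. Zic5 alone reached an eighth peak of 248 bp in an intron of Clybl. Of these 8 peaks, 1 was nearest to a Zic5 start, 5 to the start of the gene model Gm5089 and 2 to Pcca, and for none was Zic2 the nearest.

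The 8 peaks of the 40 kb interval all lay in introns of Clybl, a mitochondrial lyase gene, 194.4 to 219.7 kb upstream of the Zic2 start. Their density, 20 per 100 kb, describes how this interval was drawn and carries no test, since the interval was named with its peaks known. The peaks were narrow, with a median of 248 bp (206 to 536 bp), where the 8 peaks of Zic5 had 535.5 bp and the 7 of Zic2 575 bp. The composite sites printed above lay in chr14:122258402-122258618 (217 bp) and chr14:122277202-122277565 (364 bp). The first also held the octamer that shows as atttgcat at the left of its printed line, and it lay 469 bp from a Clybl start. A SOX core was in 3 of the 8, and none of the 3 motifs was in 3.

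**Figure D3:**
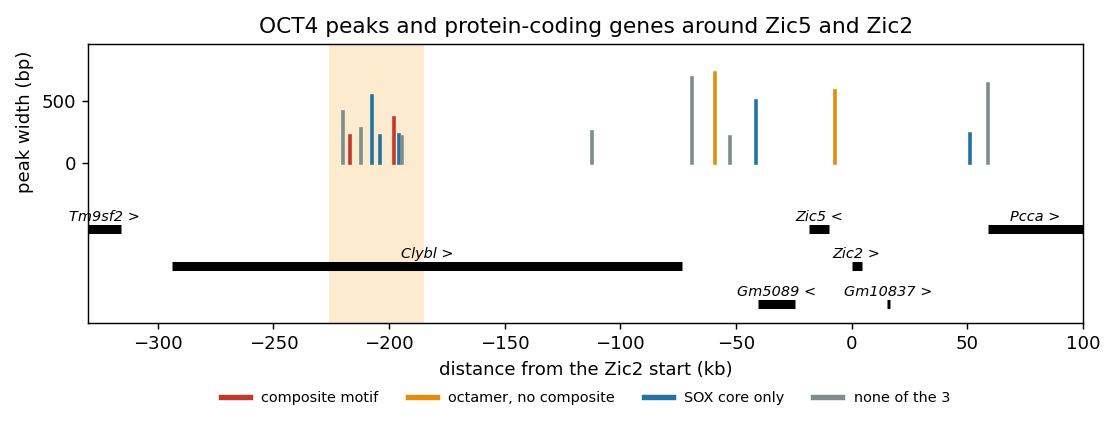
OCT4 peaks (vertical lines, height giving the peak width in bp) and protein-coding genes (black bars, arrowheads giving the strand) by distance from the Zic2 start (horizontal axis, kb), with the 40 kb interval shaded. The 8 interval peaks lie inside Clybl, and 1 peak of 575 bp sits between the starts of Zic5 and Zic2; colours give the motif in each peak.

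Foxd3 encodes a forkhead factor of the epiblast and neural crest. It had no peak in its short gene body. The nearest, chr4:99670180-99670540 (361 bp), lay 14.1 kb past the start in an intron of the antisense RNA gene Gm12682, and a peak this near was found at 44.3% of protein-coding genes. Upstream were 2 close pairs. The inner pair held the widest peak of all members, the intergenic chr4:99635944-99636959 (1016 bp), and beside it chr4:99641720-99642405 (686 bp), which holds the composite site. Only 246 peaks of the list (0.921%) exceeded 1 kb. The outer pair, of 238 and 226 bp, stood 96.7 and 94.4 kb upstream, near the limit of the search. For all 6 peaks Foxd3 was the nearest protein-coding gene.

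Grhl2 encodes a grainyhead factor that opens enhancers of epithelial genes. It was the only member with 2 composite matches, and 5 of its 7 peaks held a SOX core. Over the whole list 11.5% of peaks held a composite match and 30.3% a SOX core. Those shares are not at equal length, since the median width was 352 bp in the list and 474 bp at Grhl2. Its promoter-side peak, chr15:37232127-37232556 (430 bp), lay 695 bp upstream of a start in an exon of the antisense gene Gm16136, and 14.6% of protein-coding genes had a peak this near. Inside the gene were 3 peaks: chr15:37238450-37239051 (602 bp, the intronic composite site) and chr15:37289741-37290075 (335 bp) in introns, and chr15:37328066-37328694 (629 bp) over a coding exon. The widest, chr15:37386275-37387083 (809 bp), lay past the gene end in an intron of Ncald, a neuronal calcium sensor gene, and holds the downstream composite site. Its octamer part there is the 8-mer ATGCTAAT, so the same bases count under both motifs. The next peak, 169 kb past the Grhl2 start and also in Ncald, held the octamer and a SOX core. For both of these peaks the nearest protein-coding start was that of 4930447A16Rik, 38.9 and 23.8 kb away, and for the other 5 it was that of Grhl2.

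Lin28a and Lin28b encode RNA-binding proteins that block let-7 maturation. None of their 7 peaks held a composite match, an octamer or a SOX core, as was the case for 56.3% of all peaks in the list. Lin28a had 5 peaks, of which 3 were between 214 and 227 bp wide and only 1 had Lin28a as the nearest gene: chr4:134011540-134012008 (469 bp, the widest), in a Lin28a intron, 612 bp from an internal start. Of the other 4, 2 were nearest to Hmgn2, a nucleosome-binding protein gene, 1 to Rps6ka1 and 1 to Crybg2. The peaks chr4:133956216-133956644 and chr4:134069420-134069638 were 77.6% and 70.8% repeat-masked. A peak as near to a start as that of Lin28a was found at 13.8% of protein-coding genes.

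Lin28b had 2 peaks, both its own by nearest start: chr10:45469415-45469737 (323 bp) in an intron, 625 bp past an internal start, and chr10:45486566-45486859 (294 bp) 317 bp upstream of the outermost start. Peaks as near as the second were found at 9.48% of protein-coding genes. The second peak is printed whole because it is the most GC-rich of the 45, with CpG dinucleotides in capitals.
Lin28b promoter-side peak, chr10:45486566-45486859, plus strand: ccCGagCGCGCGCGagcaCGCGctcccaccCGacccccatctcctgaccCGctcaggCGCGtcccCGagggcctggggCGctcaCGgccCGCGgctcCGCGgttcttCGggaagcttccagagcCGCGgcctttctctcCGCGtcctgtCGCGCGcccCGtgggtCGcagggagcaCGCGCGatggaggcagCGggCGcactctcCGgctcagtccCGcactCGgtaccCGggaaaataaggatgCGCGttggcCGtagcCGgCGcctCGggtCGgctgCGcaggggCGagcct
These 294 bases hold 46 CpG and are 74.5% GC, against 2 CpG in the 300 bases printed for Otx2. The ratio of CpG found to CpG expected from the base composition was 1.13, where the median over the 45 peaks was 0.28 and over the list 0.21.

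Pax6 encodes a paired-box factor of the eye and forebrain. It had 6 peaks, all nearest to Pax6, with widths from 387 to 611 bp, and 3 of them lay within 1 kb of 1 of its 24 annotated starts. The nearest, chr2:105675141-105675696 (556 bp), had its midpoint 15 bp from a start, over the 5′ untranslated region, 6.52 kb past the outermost start. Only 0.779% of protein-coding genes had a peak as near, although a gene with many starts is more often near one. This peak holds the Pax6 octamer shown above and was 59.7% GC. The other 2 near starts, chr2:105677418-105678000 (583 bp) and chr2:105691211-105691821 (611 bp, the widest), were intronic, 682 and 967 bp from starts. Another 2 lay 52.3 and 57.6 kb upstream in introns of the antisense Pax6os1, and 1 lay 59 kb past the start in an intron of Elp4, an Elongator complex subunit gene.

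Nes encodes nestin, an intermediate filament of neural progenitors, in which an enhancer inside an intron drives expression. It had 3 peaks. The nearest and widest, chr3:87974291-87974801 (511 bp), was in a Nes intron 3.42 kb past a start, and 24.7% of protein-coding genes had a peak as near. It is shown because it lies in the gene body and carries the same 8-mer ATGCTAAT, in capitals in its plus-strand form. The SOX core of this peak lies outside the 300 central bases printed.
Nes peak, chr3:87974397-87974696, plus strand: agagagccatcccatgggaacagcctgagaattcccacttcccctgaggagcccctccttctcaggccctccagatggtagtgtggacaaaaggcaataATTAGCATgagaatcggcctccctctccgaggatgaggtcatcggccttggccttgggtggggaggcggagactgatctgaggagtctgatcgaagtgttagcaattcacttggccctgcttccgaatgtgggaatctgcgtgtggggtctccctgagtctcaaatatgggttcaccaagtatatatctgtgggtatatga
The other peaks were nearest to Prcc, 77.2 kb upstream of Nes (441 bp, 76.9% repeat-masked), and to Bcan, a brain proteoglycan gene, 15.9 kb past the Nes start (385 bp).

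Among the members, 5 (Otx2, Grhl2, Lin28a, Lin28b and Pax6) had a peak within 1 kb of a start, beside 16.5% of protein-coding genes. At Otx2, Lin28a and Pax6 this was an internal start, and the nearest peak lay 10.7, 7.07 and 6.52 kb past the outermost one. Otx2 has 10 annotated starts and Pax6 24, and a gene with many starts is more often near a peak. Counted by peaks, 9 of 45 were within 1 kb of the start of a protein-coding gene (20%, 95% Wilson interval 10.9 to 33.8), and the list had 13.8%, inside that interval. Within 2.5 kb the share was 26.7%, also above the list's 19.6%. Within 0.5 kb it was 8.89%, below the list's 10.3%, so the side of the list on which the members fell turned at the shortest distance. Of the 9 within 1 kb, 3 were at Pax6 and 2 at Lin28b, and 1 was at a start of Pcca, which is not a member. By annotation, 23 of the 45 were in introns, 16 intergenic, 2 in coding exons, 2 in other exons, 1 in a 5′ and 1 in a 3′ untranslated region. Of the 23 intronic peaks, 8 were in an intron of their own member. These feature shares were not taken over the whole list, so they are a description only. The gene bodies of the members held 10 of the 45. A member was the nearest protein-coding gene for 30 peaks and another gene for 15.

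The peaks at the members were wide for the list: their median width was 430 bp (middle range 323 to 575), where the list had 352 bp (267 to 471), and 31 of 45 reached the list's median. Since peaks at 1 locus are not independent replicates, no test was made. Widths varied among the genes more than this difference: the median was 575 bp at Zic2, 554 bp at Pax6, 535.5 bp at Zic5, 474 bp at Grhl2 and 441 bp at Nes. It was 395 bp at Foxd3 and 393 bp at Otx2, where narrow and very wide peaks were mixed, and 308.5 bp at Lin28b and 227 bp at Lin28a. The ranges overlapped between all neighbours in this order. The median GC content was 47.2% at the members and 46.4% in the list, and the median repeat-masked share was 9.3% and 13%.

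**Figure D4:**
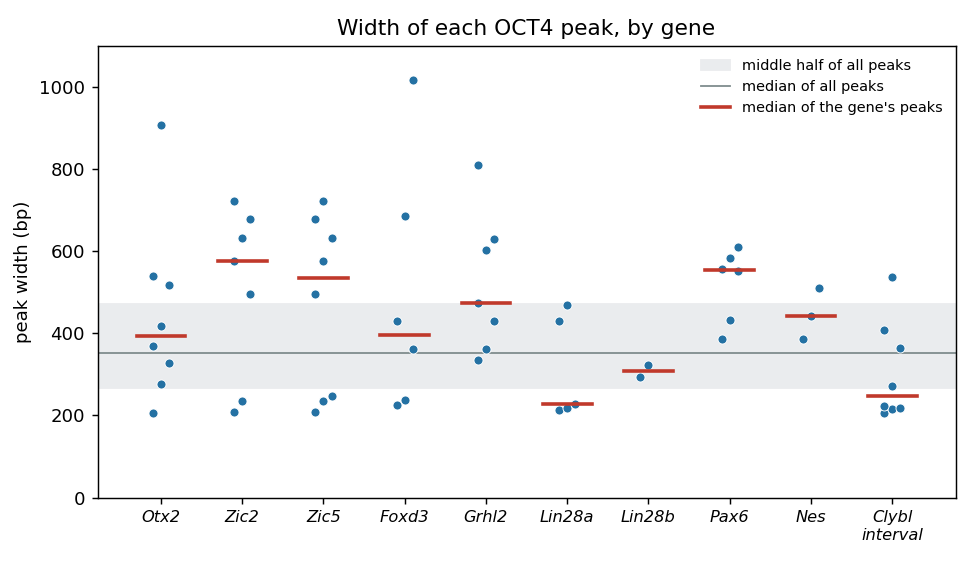
Width in bp (vertical axis) of each OCT4 peak (points) at each gene and in the Clybl interval (horizontal axis), with the gene's median in red; the 7 shared peaks appear under both Zic2 and Zic5. The grey band spans 267 to 471 bp, the quartiles of all 26704 peaks; the Lin28a median (227 bp) is under it and those of Zic2, Zic5, Pax6 and Grhl2 are above it.

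The next comparison asked whether the motifs of OCT4 and SOX2 were more or less frequent in the peaks at the members than in the whole list. The composite motif was in 4 of 45 peaks (8.89%, 95% Wilson interval 3.51 to 20.7), and in 11.5% of the list. The octamer was in 6 (13.3%, 6.26 to 26.2), against 11% of the list, and the SOX core in 15 (33.3%, 21.4 to 47.9), against 30.3%. These whole-peak shares are not at equal length, since the member peaks were wider (median 430 bp against 352 bp in the list). In the central 200 bp of each peak the SOX core was in 11.1% at the members and 20.5% of the list, which turns the direction. There the composite motif was in 2.22% and 8.58%, and the octamer in 8.89% and 7.98%. The composite share at the members also moved to 2.22% with at most 2 mismatches (list 2.21%) and to 33.3% with at most 4 (list 35.9%). The 8-mer ATGCTAAT was in 4 (8.89%), at Nes, Lin28a, Zic5 and Grhl2, against 7.73%. It was picked from this same list, so this share is a description only. None of the composite, octamer and SOX core was in 24 of 45, and in 56.3% of the list. The intervals treat peaks as independent and, over whole peaks, every list share lies inside its interval, so no difference from the list was detectable with 45 peaks.

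Motifs of other factors were also searched exactly on both strands. The OTX homeodomain sequence GGATTA was in 9 of 45 peaks (20%, 10.9 to 33.8), against 13.6% of the list, and 1 of the 9 was at Otx2 itself, in its widest peak. The ZIC sequence CCTGCTG was in 6 (13.3%), against 17.2%, with 2 of the 6 in reach of Zic5. The KLF sequence CACACCC was in 5 (11.1%), against 13.7%. The ESRRB sequence TCAAGGTCA was in 0 of 45, which allows a share of up to 7.87%, and the list had 3.08%. The grainyhead sequence AACCNGTT was likewise in 0 of 45, and the list had 3.25%, so none of the 7 Grhl2 peaks held it.

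**Figure D5:**
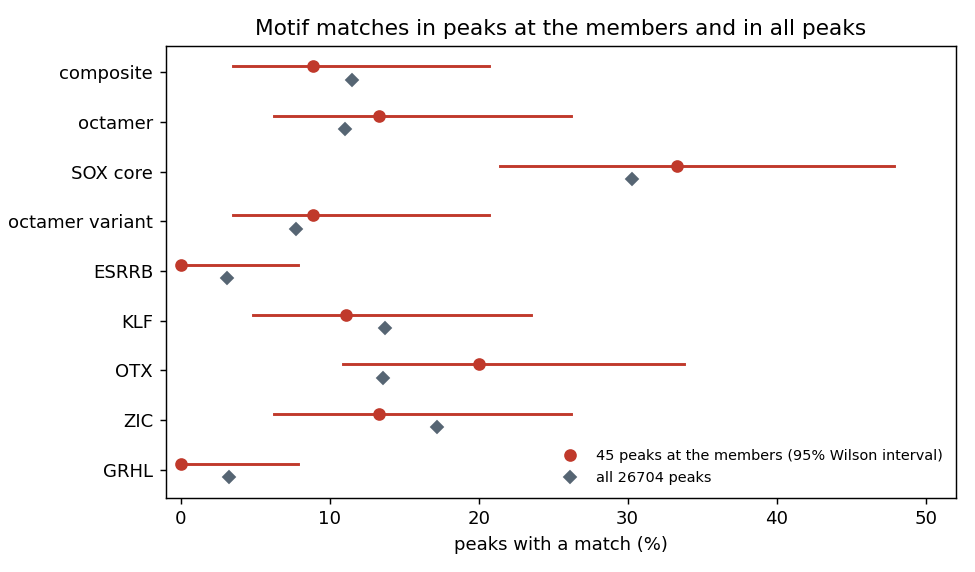
Share of peaks with each motif (horizontal axis, %) in the 45 peaks at the members (red points, with the 95% Wilson interval as a line) and in all 26704 peaks (grey diamonds); "octamer variant" is the 8-mer ATGCTAAT. Every grey diamond lies within the red line, from 11.5% against 8.89% for the composite motif to 30.3% against 33.3% for the SOX core.

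Other genes of the same processes are read beside all protein-coding genes, of which 85.7% had a peak and the median was 3. Of 12 further formative genes, 11 had a peak and the median was 5.5, led by Dnmt3b, a de novo DNA methyltransferase, and Lef1, a WNT effector, with 10 each. Pou3f1, the POU factor of the formative epiblast also known as OCT6, had none, its nearest peak being 169 kb away. Of 12 neural genes, 11 had a peak and the median was 4.5, led by Msi1, an RNA-binding protein of neural stem cells, with 12, and the proneural Neurog2 with 8. All 11 genes chosen from the families of members, not a full set of paralogues, had a peak. Their median was 3, that of all protein-coding genes, and Grhl3, a grainyhead factor, had 7. Of 6 genes of the let-7 pathway all had a peak, with a median of 3.5, led by the processing enzyme gene Drosha with 5, then Dgcr8 and Dis3l2 with 4 each. More peaks than the median gene were found at 8 of the 12 formative genes and 7 of the 12 neural genes. The same held for 4 of the 11 family genes and 3 of the 6 let-7 genes, beside 42.3% of all protein-coding genes. For the pluripotency genes that mark ES cells, the 100 kb counts were 13 at Pou5f1, 12 at Nanog and 9 at Sox2, above every member. At least as many were found at 0.775%, 1.19% and 5.29% of protein-coding genes. Within 20 kb of a start or in the body the counts were 4, 3 and 6. Grhl2 had 5 there and Foxd3 4, so the order did not hold at this reach.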

How the data were processed

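Members and gene lists were chosen with earlier results of these data known. The deposited list holds OCT4 peak coordinates in bp, made by the authors from 2TS22C libraries (biological duplicates, fixed with disuccinimidyl glutarate and formaldehyde). Per the study's methods, paired reads were aligned with STAR 2.6.1c to mm10 and duplicates were removed with Picard. Only reads on chromosomes 1 to 19, X and Y were kept, and peaks were called with MACS2 2.1.1.20160309 in paired-end mode. The study describes merging peaks with BEDTools and merging replicate alignments with SAMtools, but not how this list was merged. Which libraries entered the merge is not given in the sources used here, and merging can change the widths. The list gives no count, height or depth, so precision per peak is unknown and no test between libraries was run.

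Midpoints were placed on GENCODE M21 genes, with 21938 protein-coding genes as background. Peak sequences, repeat masking (soft-masked bases) and motifs were read from RefSeq GRCm38.p6, whose chromosome lengths matched. Motifs were searched on both strands over whole peaks. Promoter-proximal means a midpoint within 1 kb of a protein-coding gene's transcript start. Shares have 95% Wilson intervals, which cover counting error only. The text names all 9 members, each one's nearest and widest peak and those with a composite match, and of every other list the genes with the most peaks and those with none, besides genes nearer to a member's peak. Some genes of these lists are not reported here. Scripts (Python 3.11.15) were tested on simulated data. Alternatives were the reach (50 and 20 kb), width, repeats, joining peaks, start annotation, promoter distance, mismatches and the central 200 bp.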

Additional observations from a re-analysis of the deposited data

How the results depend on the processing

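No paired analysis was possible because the merged list has no column per library; for the same reason leaving out a replicate, and SOX2 OFF against SOX2 ON, were not run. Of 30 alternative values for 8 results, 22 were within 1.5-fold of the reported one or, for shares and widths, within its 95% interval, and 8 moved further. Within 20 kb, the 9 genes had 21 peaks in place of 45 and a median of 2 in place of 6 (all genes: 1), with 6 members above the median gene. The share of all protein-coding genes above the 20 kb median is not given here, so these 6 cannot be set beside it. The promoter-proximal share at 0.5 kb was 8.89% (list 10.3%), below the list where the 1 kb share was above it. The composite share was 2.22% with at most 2 mismatches (list 2.21%), 33.3% with at most 4 (list 35.9%) and 2.22% in the central 200 bp (list 8.58%). The SOX core share in the central 200 bp was 11.1% (list 20.5%), likewise below the list where the whole-peak share was above it. Of the 8 interval peaks, 3 were at least 300 bp wide. The cause of these shifts was not tested. A peak near a gene does not show that it acts on that gene, and depth, height and residual SOX2 could not be assessed.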
